A study of Mus musculus with 4 samples.

Results

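Solute carriers are the largest superfamily of membrane transporters, and 145 of their genes were followed here in mouse liver by the histone mark H3K27ac. The 145 genes were all names beginning with Slc and a digit to which at least 1 H3K27ac region had been assigned in either of the study's lists, with the bile acid carrier Slc10a1 and the acyl-CoA ligase gene Slc27a5 left out. They came from 10925 gene names with a listed start site, of which 7089 were protein-coding. A carrier gene to which no region had been assigned was not a member, so the counts below do not cover the whole superfamily. The symbols cover more than transport: Slc9a3r2 matched the name rule and encodes a scaffold protein that binds transporters. The choice of genes used no measured difference between the groups.

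H3K27ac, acetylation of lysine on histone H3 at active promoters and enhancers, was mapped by CUT&Tag, in which an antibody brings a transposase to the mark to cut and tag the DNA. Wild-type C57/BL6J mice had either a sham operation or a 70% partial hepatectomy (PHx), the standard model of liver regeneration. Liver was taken 12 h after PHx, with 2 libraries per group. The labels give the sham libraries no time and the design text gives 0 h, and neither the time since surgery nor the time of day can be told apart from hepatectomy. The labels do not say whether replicate libraries came from separate animals. For each group a single merged list of regions on the mouse assembly GRCm39 was used, without signal or read counts. The depth is therefore unknown, replicate error could not be given, and no test between the groups was possible. Presence, position and width of regions were compared.

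The sham list held 11602 regions with a median width of 8152.5 bp, and the PHx list held 10170 regions with a median of 14550.5 bp. This general widening touches every comparison of the carriers, and the main counts and medians of the carriers are set beside the same values over protein-coding genes. In whole liver, fewer cells of a type and less mark per cell cannot be told apart. Of 5 hepatocyte markers with a listed start, Alb, Apoa1, Apob and Ttr had a region there in both lists and Cps1 in the PHx list only. Of 5 endothelial markers, Cdh5, Erg, Lyve1 and Pecam1 had such a region in the PHx list only and Stab2 in neither. Of the other markers, the Kupffer cell gene Csf1r and the stellate cell gene Colec11 were in the PHx list only, while C1qa, Cd68 and the cholangiocyte marker Sox9 were in both. Listed starts were found for 5 of 7 hepatocyte, 5 of 5 endothelial and 3 of 4 Kupffer cell markers looked up. For stellate cells it was 1 of 5 and for cholangiocytes 1 of 3. The part of other cell types in the carrier results was not tested.

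Solute carriers move their substrates down a gradient or couple them to sodium, protons or a counter-substrate, without splitting ATP themselves. In the hepatocyte they take up amino acids, sugars, bile salts, drugs and metals from the blood. The mitochondrial carriers of the Slc25 family pass metabolites such as citrate, aspartate and acylcarnitine across the inner membrane, and the Slc35 family carries nucleotide sugars into the Golgi apparatus and the endoplasmic reticulum. By substrate, the 145 genes were grouped into amino acid (23), sugar (13), organic ion (33), metal (16), mitochondrial (17), inorganic ion (14), nucleoside, vitamin and peptide (14), nucleotide sugar (10), fatty acid and choline (3) and other (2).

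The start sites of these genes differ widely in base composition. Upstream sequences of 250 bases are shown for 5 genes, to set a promoter of each H3K27ac pattern beside the others. Slc16a1, which encodes the lactate and pyruvate carrier MCT1, and Slc2a2, which encodes the hepatocyte glucose carrier GLUT2, had a region at the start in both lists. Slc3a2, the heavy chain of the large neutral amino acid carriers, had it in the PHx list only, and Slc25a20, the carnitine-acylcarnitine carrier, in the sham list only. Slc22a6, which encodes the organic anion carrier OAT1, had it in neither. The sequences are from RefSeq on GRCm38.p6, read in the direction of transcription up to the base before the start site, and capitals mark CG dinucleotides. They lie at chr3:104638414-104638663 (plus strand), chr3:28697653-28697902 (plus), chr19:8713898-8714147 (minus), chr9:108661886-108662135 (plus) and chr19:8617746-8617995 (plus), in the order printed.
Slc16a1: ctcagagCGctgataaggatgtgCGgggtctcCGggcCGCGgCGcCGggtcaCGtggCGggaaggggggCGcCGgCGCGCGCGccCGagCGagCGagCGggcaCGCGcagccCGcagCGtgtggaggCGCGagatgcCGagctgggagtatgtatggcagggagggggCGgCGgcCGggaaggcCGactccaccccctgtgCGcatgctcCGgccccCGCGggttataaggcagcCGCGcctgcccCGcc
Slc2a2: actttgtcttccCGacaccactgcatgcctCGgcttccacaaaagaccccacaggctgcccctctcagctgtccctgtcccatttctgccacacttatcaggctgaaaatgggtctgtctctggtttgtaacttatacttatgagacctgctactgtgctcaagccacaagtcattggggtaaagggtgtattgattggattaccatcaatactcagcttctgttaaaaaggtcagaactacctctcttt
Slc3a2: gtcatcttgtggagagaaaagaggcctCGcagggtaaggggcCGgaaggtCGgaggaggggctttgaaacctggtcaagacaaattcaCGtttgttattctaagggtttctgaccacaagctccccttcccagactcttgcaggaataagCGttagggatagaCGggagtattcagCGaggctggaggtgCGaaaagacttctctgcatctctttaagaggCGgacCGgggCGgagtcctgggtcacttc
Slc25a20: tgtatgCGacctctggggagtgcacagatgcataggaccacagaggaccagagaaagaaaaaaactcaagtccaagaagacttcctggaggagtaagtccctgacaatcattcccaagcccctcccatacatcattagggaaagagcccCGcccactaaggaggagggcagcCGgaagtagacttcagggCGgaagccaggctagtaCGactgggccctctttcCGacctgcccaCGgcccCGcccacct
Slc22a6: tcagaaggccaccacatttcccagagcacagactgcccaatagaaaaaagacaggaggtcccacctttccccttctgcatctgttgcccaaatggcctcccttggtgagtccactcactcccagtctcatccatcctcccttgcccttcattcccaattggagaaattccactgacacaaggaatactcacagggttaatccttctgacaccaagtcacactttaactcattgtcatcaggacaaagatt

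The Slc16a1 stretch held 37 CG dinucleotides, Slc3a2 11, Slc25a20 8, Slc2a2 2 and Slc22a6 none. Among the 111 members that matched the RefSeq promoter table, the observed over expected CpG ratio had a median of 0.60, against 0.54 over 17491 protein-coding promoters. The latter include genes with no listed H3K27ac region, whereas every member had a region assigned. The part of this choice in any difference from the members was not tested. By pattern, the median was 0.62 for 67 genes with a region in both lists, 0.66 for 22 in the PHx list only, 0.46 for 10 in the sham list only and 0.24 for 12 in neither. A ratio under 0.4 was found in 19.4%, 31.8%, 30.0% and 66.7% of these promoters in the same order, and in 40.7% of all protein-coding promoters. Most genes with no region at their start were thus of low CpG content. The PHx-only genes had a median near that of genes in both lists but a larger share under 0.4, and no test compared the sets. Slc2a2, with a ratio of 0.15, was among the 13 genes under 0.4 that had a region in both lists.

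**Figure D1:**
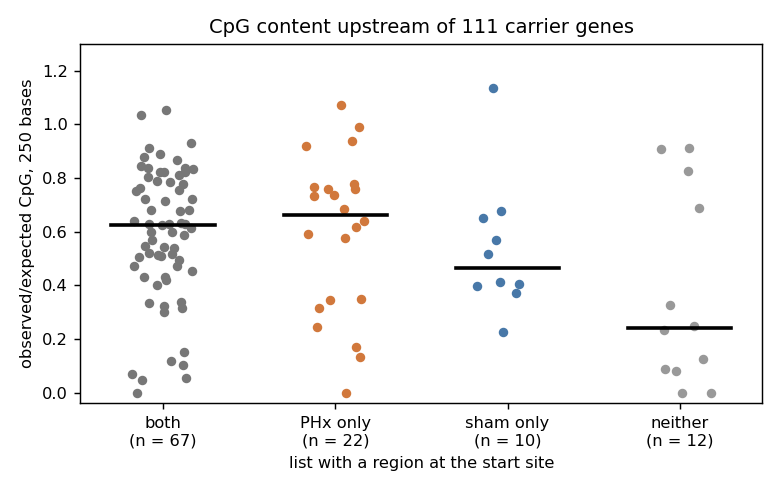
Observed over expected CpG ratio of the 250 bases upstream of 111 carrier genes, by the list that held a region at the start site. Each point is 1 gene and the horizontal line is the median: 0.62 in both lists, 0.66 for PHx only, 0.46 for sham only and 0.24 for neither.

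Short motifs were searched on both strands of the same 250 bases. The GC box GGGCGG was in 59.5% of member promoters and in 42.7% of all protein-coding promoters. The E-box CACGTG was in 13.5% against 6.65%, and the HNF1 sequence GTTAAT in 9.01% against 5.95%. TATAAA was in 6.31% against 12.4%, CCAAT in 33.3% against 36.5% and TGACTCA, the AP-1 sequence, in 3.60% against 3.98%. Of the sequences shown, Slc16a1 holds a CACGTG and Slc22a6 a GTTAAT, while Slc25a20 has 3 matches to GGGCGG. Here too the protein-coding promoters include genes without a listed region, so the sets differ in more than transport. These motif matches are letters in a window and say nothing of binding.

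At the start sites, the pattern of the carriers was near that of protein-coding genes. A gene was called marked in a list when a region overlapped the 1 kb on either side of its most upstream listed start, whichever gene the authors had assigned that region to. Of the 145 carriers, 86 (59.3%, exact binomial 95% interval 50.8 to 67.4%) were marked in both lists, where the share over protein-coding genes was 66.0%. In the PHx list only there were 28 (19.3%, 13.2 to 26.7%), against 15.4% over protein-coding genes. In the sham list only there were 13 (8.97%, 4.86 to 14.8%), against 9.78%. The remaining 18 (12.4%, 7.53 to 18.9%) were marked in neither, against 8.79% of protein-coding genes, and 17 of these had a distal region instead. These intervals cover counting error only, since genes are not replicates, and each holds the share over protein-coding genes. Genes entered the list through an assigned region, so these shares do not say how often carriers in general were marked.

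**Figure D2:**
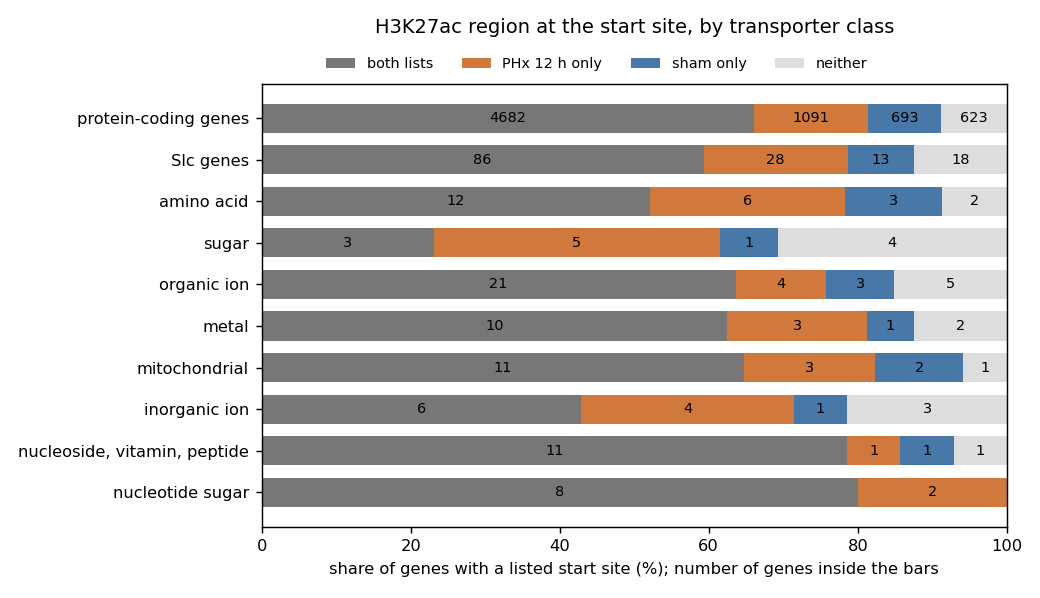
Share of genes with an H3K27ac region at the start site in both lists, after PHx only, in sham only or in neither, for 7089 protein-coding genes, the 145 carriers and 8 substrate classes (the classes of 3 and 2 genes are not drawn). Numbers inside the bars are genes, and the bar of sugar carriers has the smallest share in both lists of the bars drawn, with 3 of 13 genes.

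At the carriers marked in both lists, the region was usually wider after PHx. The median width was 10168 bp in sham against 21607 bp after PHx, and the median of the 86 ratios was 1.95 (quartiles 1.38 and 3.20), against 1.72 over protein-coding genes marked in both. Regions were at least 2 times wider at 42 of 86 carriers (48.8%), where the background was 40.0%. They were narrower at 5 of 86 (5.81%), where it was 8.63%: Slc30a1, Slc66a2 (19987 and 15975 bp), Slc8b1, Slc48a1 and Slc25a1. At Slc66a2 a further PHx region of 24238 bp began 16934 bp downstream of the start. Regions covered 45.1% of its transcript in sham and 88.7% after PHx. That cover was 81.5% and 72.5% at Slc8b1, 77.6% and 77.8% at Slc48a1, and 100% in both lists at Slc30a1 and Slc25a1. The ratios ran from 0.72 at the zinc exporter Slc30a1 to 11.16 at the mitochondrial NAD carrier Slc25a51. Since widths are single values per list, none of these ratios has an error.

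**Figure D3:**
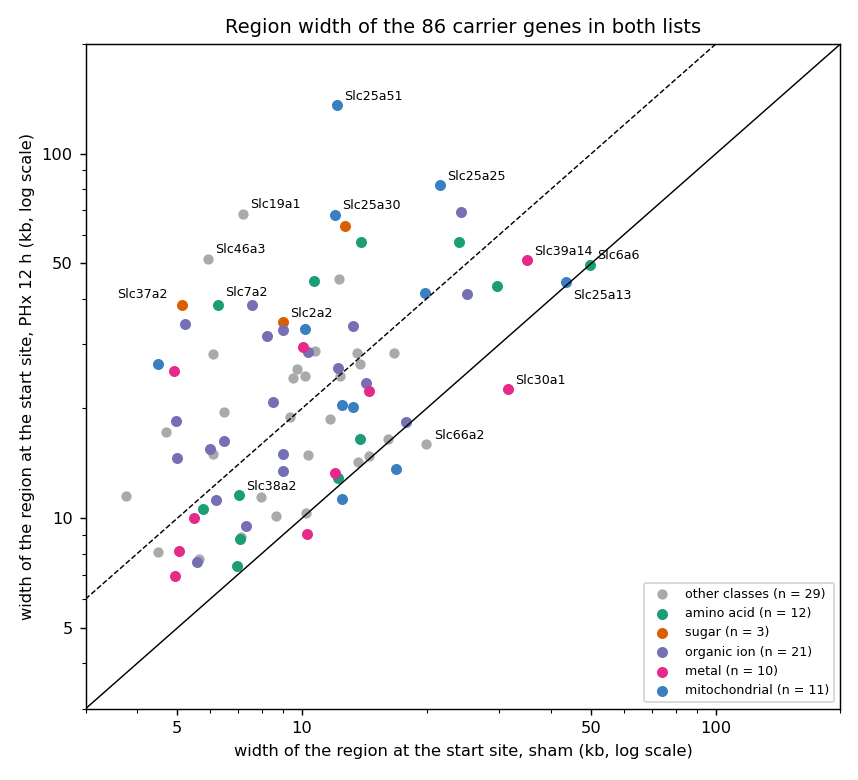
Width of the region at the start site in sham (x axis, kb, log scale) and after PHx (y axis, kb, log scale) for the 86 carriers marked in both lists, coloured by substrate class. The solid line marks equal width and the dashed line a width 2 times that in sham; 81 points lie above the solid line and 42 on or above the dashed line.

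Among amino acid carriers, 6 of their 23 genes were marked after PHx only. That is 26.1%, with an interval of 10.2 to 48.4% that holds the 15.4% of protein-coding genes. In each of the 10 classes the interval of the PHx-only share held that background. Another 12 amino acid carriers were marked in both lists, 3 in sham only and 2 in neither. The light chain Slc7a5 (LAT1) and its heavy chain Slc3a2 (CD98hc) form the main exchanger of large neutral amino acids, and both were in the PHx-only set. At Slc7a5 (chromosome 8, start at 122634425, minus strand) the PHx region measured 24146 bp from 122613907 to 122638052. The closest sham region was 5297 bp from that start. At Slc3a2 (chromosome 19, start at 8691261, minus strand) the PHx region measured 14281 bp from 8684738 to 8699018, and the nearest sham region lay 20916 bp away.

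The other PHx-only amino acid genes were Slc7a8 (LAT2, 8148 bp), Slc43a1 (LAT3, 18882 bp), the lysosomal proton-coupled carrier Slc36a1 (37579 bp) and Slc38a6 (8315 bp). The nearest sham region was 69466 bp from the start of Slc7a8 and 110188 bp from that of Slc38a6. It was only 5966 bp away at Slc43a1 and 1295 bp away at Slc36a1, where sham regions covered 49.4% and 50.7% of the transcript. Slc7a5, Slc43a1 and Slc36a1 thus had sham regions in the gene though not at the start, while no sham region touched the transcripts of Slc3a2, Slc7a8 and Slc38a6. The 3 sham-only genes were Slc1a5 (ASCT2, a sodium-dependent carrier of glutamine and other neutral amino acids, 4275 bp), Slc38a11 (5767 bp) and Slc7a15 (7126 bp). The nearest PHx regions lay 30976, 94532 and 30866 bp from their starts.

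At the 12 amino acid carriers marked in both lists the median ratio was 1.55. With all regions of each list inside the union of both promoter regions summed, it was 1.25. By that sum, 0 of 12 were at least 2 times wider, where it was 19 of all 86 carriers. Slc7a2 (CAT2, the carrier of arginine and other cationic amino acids) had the highest ratio of widths, 6.14. Its region had 6283 bp in sham against 38561 bp after PHx, and the summed ratio was 1.20. Slc7a7, the light chain of the y+LAT1 exchanger, went from 10695 to 44863 bp. Its PHx region covered 95.8% of the transcript, where the sham region and others of that list covered 43.5%. The betaine and GABA carrier genes Slc6a12 and Slc6a13 lie next to each other and had separate sham regions of 23955 and 13886 bp, and a single PHx region of 57382 bp covered both starts. Slc38a2 (SNAT2), the sodium-coupled carrier of alanine and glutamine, went from 7043 to 11560 bp. The taurine carrier Slc6a6 had nearly equal widths, 49546 and 49576 bp, and its sham region was wider than 99.3% of those at protein-coding starts. Slc16a10 (12226 and 12921 bp) and Slc1a4 (6952 and 7385 bp) both had ratios of 1.06. Between these came Slc3a1 (13823 and 16477 bp), Slc38a7 (7072 and 8782 bp), the glycine carrier Slc6a9 (29568 and 43270 bp) and Slc36a4 (5752 and 10620 bp).

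Sugar carriers had 5 of 13 genes marked after PHx only, 1 in sham only, 3 in both lists and 4 in neither. With so few genes the interval of the PHx-only share is wide (38.5%, 13.9 to 68.4%) and holds the 15.4% of protein-coding genes. The fructose carrier Slc2a5 (GLUT5) had a PHx region of 58384 bp that reached from 150168686 to 150227069 on chromosome 4. The authors assigned that region to the neighbouring gene Gpr157, whose start it also covers, and no sham region came nearer to the Slc2a5 start than 11706 bp. Slc2a6 (10754 bp), Slc37a1 (18803 bp), Slc37a3 (6853 bp) and Slc45a4 (14831 bp) made up the rest. Slc37a1 and Slc45a4 were marked in both lists when any of their listed starts was allowed. The sham-only gene was Slc2a8 (GLUT8), with 12803 bp in sham over the whole transcript and no PHx region within 11533 bp of the start.

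All 3 sugar carriers marked in both lists had PHx regions that joined several sham regions, where the share over protein-coding genes was 29.6%. Their median ratio was 4.99. By summed length, which adds up all regions of each list inside the union of both promoter regions, it was 1.20. At Slc2a2 (chromosome 3, start at 28752052, plus strand) the sham region measured 9002 bp from 28747865 to 28756866 and the PHx region 34486 bp from 28747807 to 28782292, a ratio of 3.83. Both regions began almost at the same place, and the added length lay downstream. A second sham region already lay there, and the sham regions together filled 93.6% of the PHx region. At Slc45a3 the widths were 12733 and 63485 bp, and 4 sham regions filled 83.4% of the PHx region, which also covers the start of Elk4. At Slc37a2, a phosphate-linked sugar phosphate exchanger of the endoplasmic reticulum, they were 5122 and 38439 bp, a ratio of 7.50, and 2 sham regions filled 41.4% of the PHx region. The GLUT3 gene Slc2a3 was among those marked in neither list, as were Slc45a1, Slc5a10 and Slc5a11.

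Organic ion carriers were the largest class, with 21 of 33 genes marked in both lists, 4 after PHx only, 3 in sham alone and 5 in neither. The median ratio was 2.52, and 13 of 21 regions (61.9%, background 40.0%) were at least 2 times wider. In 11 of the 21 (52.4%, background 29.6%) the PHx region joined several sham regions. With the lengths of each list summed over the same stretch, the median was 1.55 and 6 of 21 were at least 2 times wider. Of all 86 carriers, 19 were at least 2 times wider by that sum. The cation and proton exchanger Slc47a1 (MATE1) had 8527 and 20899 bp, the phosphate and urate carrier Slc17a1 had 6475 and 16301 bp, and the urate carrier Slc2a9 (GLUT9) had 8217 and 31588 bp. At the MCT1 gene Slc16a1 the region grew from 4977 to 14667 bp, a ratio of 2.95, and the sham list had no other region in that stretch. The highest ratios were those of Slc16a11 (5226 and 34165 bp) and of the sodium-dicarboxylate carrier Slc13a2 (7563 and 38522 bp). The creatine carrier Slc16a12 had the widest PHx region of the class, 69289 bp against 24281 bp in sham, though 3 sham regions filled 93.6% of it. The ileal type bile acid carrier Slc10a2 had 6007 and 15484 bp. The pyruvate and lactate carrier Slc16a7 (MCT2) changed little, with 17877 and 18329 bp.

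The 4 organic ion carriers marked after PHx only were the citrate carrier Slc13a5 (20218 bp), the sulfate carrier Slc13a4 (26266 bp), Slc17a8 (20963 bp) and Slc26a10 (11672 bp). For 3 of them the sham list had a region just outside the window: 2207 bp from the start of Slc13a5, 2298 bp from Slc13a4 and 1893 bp from Slc17a8. With a window of 3 kb on each side all 3 would be marked in both lists. In sham only were Slc17a4 (5120 bp), the lysosomal sialic acid carrier Slc17a5 (4923 bp) and the urate exchanger Slc22a12 (6114 bp), with the nearest PHx region at least 35617 bp away. Slc22a6, shown above, had its nearest PHx region 1036 bp from the start just outside the window, and its nearest sham region at 3977 bp.

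Metal carriers had a median ratio of 1.50 over 10 genes marked in both lists, with 3 genes after PHx only, 1 in sham alone and 2 in neither. By summed length the median was 1.49, where that of all carriers was 1.48. The hepatic zinc and iron carrier Slc39a14 (ZIP14) had wide regions in both lists, 35004 bp in sham against 51103 bp after PHx, and its added length lay largely downstream: the share of the transcript covered was 19.1% in sham and 87.2% after PHx. The iron exporter Slc40a1 (ferroportin) was nearly equal, with 12007 and 13281 bp. The zinc importer Slc39a4 had 14544 and 22315 bp, Slc39a8 (ZIP8, zinc and manganese) 5039 and 8147 bp, and the haem carrier Slc48a1 10297 and 9052 bp. At Slc30a1 (ZnT1) the sham region of 31507 bp corresponded to a PHx region of 22608 bp at the start and a further PHx region of 14497 bp that began 10978 bp downstream of it. Counting both, the PHx length inside the union of the regions was 1.14 times that in sham, so the lowest ratio of all carriers came from a region listed in pieces. Slc30a9 (4897 and 25392 bp) and the magnesium carrier Slc41a1 (10038 and 29546 bp) had the highest ratios of the class, but both PHx regions joined 2 sham regions. By summed length their ratios were 1.52 and 1.69, and Slc30a5 was higher at 1.82 (5486 and 9984 bp).

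Among the 3 PHx-only metal genes, the iron carrier Slc11a2 (DMT1, 28743 bp) had 2 sham regions inside its PHx region, the nearer at 1799 bp from the start. The copper carrier Slc31a2 (CTR2, 29405 bp) had no sham region within 75936 bp, and its PHx region covered the whole transcript. The zinc carrier Slc39a5 had a PHx region of 9907 bp and no sham region within 5786 bp. The Golgi zinc carrier Slc30a6 was marked in sham only, with 4267 bp and the nearest PHx region 49916 bp away.

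Mitochondrial carriers included the widest PHx region of all the carriers and 2 genes marked in sham only. Of 17 genes, 11 were marked in both lists with a median ratio of 2.09, or 1.23 by summed length, and 3 were marked after PHx only. At Slc25a51 (chromosome 4, start at 45408922, minus strand) the sham region measured 12169 bp and the PHx region 135841 bp, from 45399954 to 45535794. That PHx region runs upstream across the start of Shb, and 3 sham regions, 1 of them 93825 bp wide at Shb, filled 86.5% of it. The ATP-magnesium and phosphate carrier Slc25a25 had 21562 and 82073 bp, with 4 sham regions filling 81.3%. Slc25a30 had 11996 and 68045 bp, with 3 sham regions filling 58.5%. The phosphate carrier Slc25a3 widened without joining, from 4495 to 26519 bp, and the sham region filled 17.0% of the PHx region. Slc25a48 likewise went from 10183 to 32988 bp.

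The aspartate-glutamate carrier Slc25a13 (citrin), which serves the urea cycle and the malate-aspartate shuttle, had wide and nearly equal regions of 43439 and 44377 bp. The citrate carrier Slc25a1 had 12512 and 11280 bp and the mitochondrial sodium-calcium exchanger Slc8b1 had 16893 and 13649 bp, so both were narrower after PHx. The liver-enriched Slc25a47 had 12466 and 20500 bp. The carnitine-acylcarnitine carrier Slc25a20, needed for long-chain fatty acids to enter beta-oxidation, had a sham region of 3681 bp from 108538822 to 108542502 on chromosome 9 and no PHx region within 9233 bp of its start. PHx regions nonetheless covered 38.7% of its transcript further downstream. The glycine carrier Slc25a38, which supplies haem synthesis, had a sham region of 5366 bp, and the nearest PHx region was 12646 bp away. The PHx-only genes were the adenine nucleotide translocase Slc25a5 (ANT2, 5538 bp), the oxodicarboxylate carrier Slc25a21 (5516 bp) and Slc25a35 (10391 bp), and none of their regions overlapped a sham region.

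Among inorganic ion carriers, 4 of 14 genes were marked after PHx only, 6 in both lists, 1 in sham only and 3 in neither. The median ratio was 2.23, or 1.43 by summed length. The electrogenic bicarbonate carrier Slc4a4 (6296 bp) and the sodium-chloride carrier Slc12a3 (75704 bp) were marked through regions that began 435 and 317 bp from the start without covering it. The Slc12a3 region spans the neighbouring gene Herpud1 and was filled to 74.5% by 4 sham regions. Slc12a8 had a PHx region of 24551 bp. Of the phosphate carriers that serve many cell types, Slc20a1 (PiT-1) had 9534 and 24257 bp and Slc20a2 (PiT-2) 10747 and 28819 bp. The potassium-chloride carriers Slc12a4 (10230 and 10335 bp) and Slc12a7 (13651 and 14292 bp) changed little. Slc4a1, the anion exchanger of red cells, was marked in neither list but had a distal sham region.

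In the nucleoside, vitamin and peptide class, 11 of 14 genes were marked in both lists with a median ratio of 1.80, or 1.72 by summed length. The folate carrier Slc19a1 went from 7185 to 68406 bp, a ratio of 9.52, with 4 sham regions filling 43.6% of the PHx region. Slc46a3, a lysosomal carrier, went from 5934 to 51574 bp with no other sham region in the stretch, so 11.5% of the PHx region was in the sham list. The proton-coupled peptide carrier Slc15a3 (6089 and 28297 bp) and the riboflavin carrier Slc52a3 (4696 and 17263 bp) widened in the same way, and after PHx the regions covered their whole transcripts. The thiamine carrier Slc19a2 had 11684 and 18720 bp, the ascorbate carrier Slc23a2 10153 and 24592 bp, and the proton-coupled folate carrier Slc46a1 8653 and 10136 bp. The purine nucleobase carrier Slc43a3 was marked after PHx only (12913 bp, nearest sham region 77311 bp away), and Slc23a4 in sham only (6689 bp), through a region 83 bp from its start.

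All 10 genes of the nucleotide sugar class, which holds the Slc35 family, were marked after PHx, as were 81.4% of protein-coding genes. Of these 10 genes, 8 were also marked in sham, with a median ratio of 2.0, or 1.71 by summed length. Slc35b1, the ATP carrier of the endoplasmic reticulum, had 5633 and 7712 bp, the GDP-fucose carrier Slc35c1 12318 and 45406 bp in a PHx region that also covers Cry2, and Slc35d1 6082 and 14981 bp. Slc35e3 (14607 bp) and Slc35f6 (24121 bp) were marked after PHx only. The fatty acid carrier Slc27a2, also a very-long-chain acyl-CoA synthetase, had 16676 and 28473 bp, and Slc27a4 6473 and 19548 bp. Both PHx regions were longer upstream only, over the starts of Gm26697 and Coq4 in turn. Downstream of the start they were shorter, with 12287 and 9909 bp at Slc27a2 and 5593 and 3158 bp at Slc27a4. Slc44a4 of the choline carrier family was marked in sham only (11739 bp, nearest PHx region 12238 bp away). Slc25a17, the peroxisomal member of the Slc25 family, had 14521 and 14794 bp, and the scaffold gene Slc9a3r2 13578 and 28317 bp.

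Much of the widening at the carriers was the joining of regions that the sham list gave separately. In 33 of the 86 carriers marked in both lists the PHx region overlapped at least 2 sham regions, with at most 4. That is 38.4%, against 29.6% of protein-coding genes. The median ratio of these 33 was 2.94. In the other 53 the PHx region overlapped 1 sham region, and the median ratio was 1.52. Protein-coding genes had medians of 3.16 (1388 genes) and 1.43 (3294 genes). Of the 42 carriers with a region at least 2 times wider, 27 (64.3%) were joined in this way, against 59.4% of protein-coding genes. When all sham and PHx lengths inside the union of both regions were summed, the median ratio of the carriers was 1.48 in place of 1.95. Summed ratios, here and by class, have no value over protein-coding genes beside them. The sum at Slc2a2 was 1.07, at Slc7a2 1.20 and at Slc25a51 1.16, while Slc46a3 at 8.69 and Slc25a3 at 5.90 kept their full ratios.

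**Figure D4:**
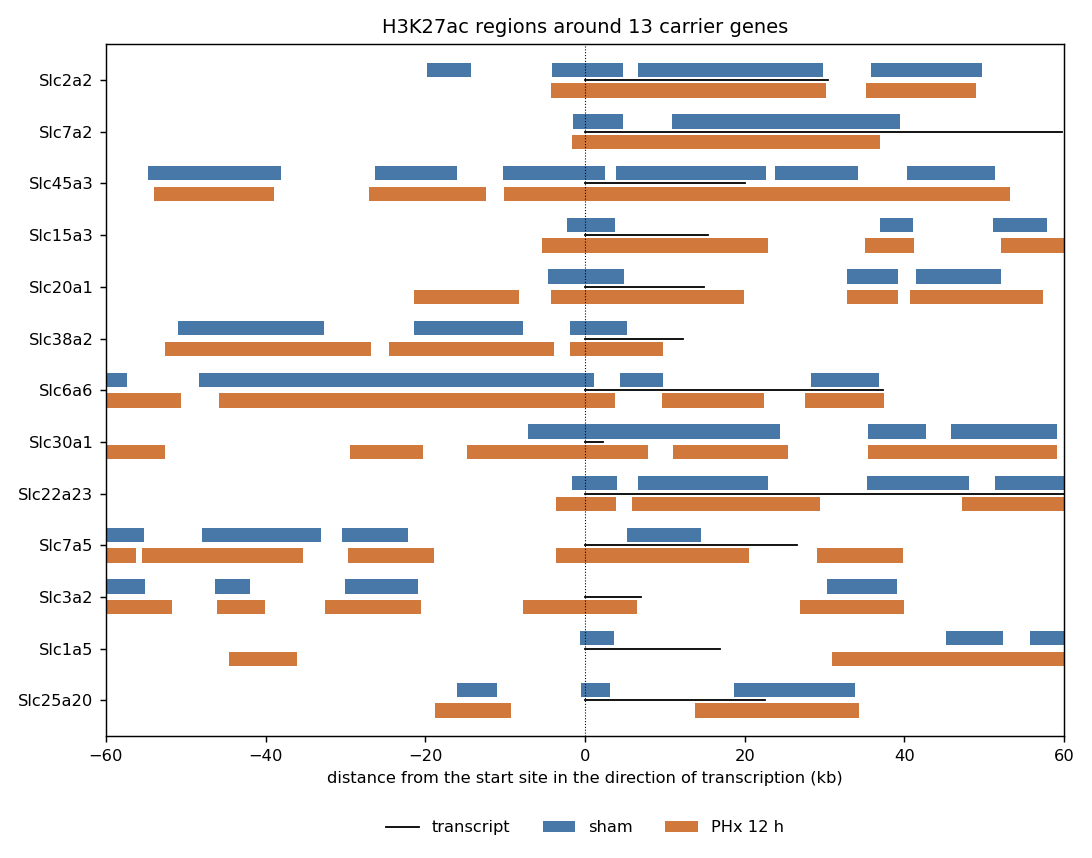
H3K27ac regions of the sham list (upper bar of each row) and the PHx list (lower bar) within 60 kb of the start of 13 carrier genes, by distance from the start site in the direction of transcription; the thin line is the transcript. Slc2a2, Slc7a2 and Slc45a3 have several sham regions under 1 PHx region, Slc15a3 and Slc20a1 a single wider region, Slc6a6 nearly equal regions, Slc7a5 and Slc3a2 a region at the start after PHx only, and Slc1a5 and Slc25a20 in sham only.

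The regions were extended mainly downstream of the start. At 62 of the 86 carriers (72.1%) the region gained more bases downstream of the start than upstream, where the share over protein-coding genes was 58.5%. The median gain was 5008.5 bp downstream and 950 bp upstream, against 2701.5 and 1481.5 bp over protein-coding genes. Counted by the transcript, 52 of 86 regions gained more bases inside it than outside, with median gains of 4642.5 and 1973 bp. These gains were not counted over protein-coding genes, so they are not set apart from the general share. Regions covered a median of 39.6% of the transcript in sham and 75.0% after PHx, against 34.9% and 55.9%. The region at the start also reached the end of the transcript at 5 carriers in sham (5.81%, against 14.6% of protein-coding genes). After PHx it did so at 25 carriers (29.1%, against 26.9% of protein-coding genes). Transcript length differs between the sets, with a median of 26777.5 bp for these carriers and 22638.5 bp for protein-coding genes, and its part in the difference was not tested. The PHx libraries were also not alike. At the 86 carriers, library 1 was split into several peaks in 7 PHx regions and library 2 in 22, against 11 and 10 in sham. Over protein-coding genes the shares were 6.32% and 20.5% after PHx and 11.0% and 8.42% in sham.

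**Figure D5:**
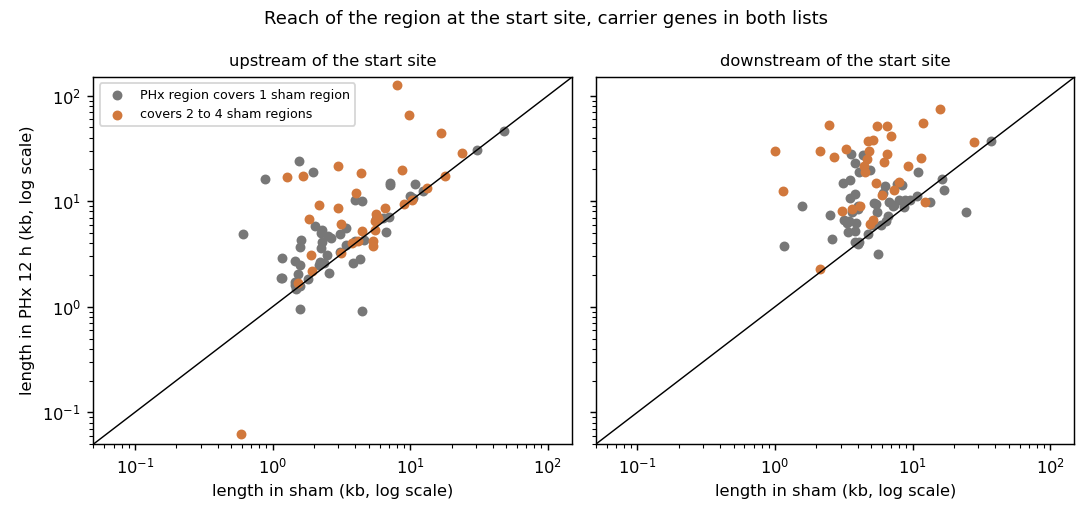
Length of the region upstream (left) and downstream (right) of the start site in sham (x axis) and after PHx (y axis), in kb on log scales, for the 86 carriers marked in both lists; the line marks equal length. Downstream, 79 of 86 points lie above the line, and upstream 71, with orange points for PHx regions that cover 2 to 4 sham regions.

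The 28 carriers marked after PHx only fell into several kinds. The PHx region overlapped no sham region at all in 16 (57.1%, against 69.4% of protein-coding PHx-only genes) and overlapped a sham region further along in 12. In 5 the sham region ended within 3 kb of the start: Slc36a1, Slc11a2, Slc17a8, Slc13a5 and Slc13a4, the last at 2298 bp. Over protein-coding PHx-only genes this was 127 of 1091. None of the 13 sham-only regions overlapped a PHx region, and 94.5% of protein-coding sham-only genes were likewise without overlap. The 13 regions had a median width of 5767 bp, near the 5619 bp of protein-coding sham-only genes. The 28 PHx-only regions had a median of 16817 bp, against 13403 bp. A region had to be found in both libraries of a group to be listed, and gaps in the numbering of peaks show where a library had a peak that was not listed. Only 6 of the 28 PHx-only and 2 of the 13 sham-only carriers lay where the other group had no such gap. These are 21.4% and 15.4%, against 10.2% and 14.4% over protein-coding genes. For most carriers called in a single list, a peak in 1 library of the other group therefore cannot be told apart from none.

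The 18 carriers marked in neither list included 5 organic ion and 4 sugar carriers, and no gene of the nucleotide sugar or fatty acid class. They were Slc38a1 and Slc6a21 of the amino acid class, Slc24a3, Slc34a1 and Slc4a1 of the inorganic ions, the metal carriers Slc39a10 and Slc41a2, Slc25a26 of the mitochondria, the peptide carrier Slc15a4, 4 sugar carriers, and the organic ion carriers Slc13a1, Slc22a5, Slc22a6, Slc22a16 and Slc22a22. Slc22a5 encodes OCTN2, the main carnitine carrier of the plasma membrane, and had distal regions in both lists, 10277 bp from the start in sham and 11049 bp after PHx. Slc13a1 had a distal region in the PHx list only, 127756 bp from its start, and the nearest sham region of any gene lay 326788 bp away. Slc15a4 alone had no distal region, and its nearest regions lay 2553 and 2533 bp from the start.

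Away from promoters, the sham list had 62 regions assigned to 49 carriers at more than 3 kb from the start by the authors' distances, with a median width of 7087.5 bp, and the PHx list 28 regions at 26 carriers, with a median of 14489.5 bp. Of the 62 sham regions, 20 overlapped the promoter region of the same gene in the PHx list, 16 of them wholly inside it. Another 32 overlapped a different PHx region, and 10 (16.1%, 8.02 to 27.7%) overlapped none, where the share over all distal sham regions was 18.6%. Of the 28 distal PHx regions none overlapped a sham promoter region of the same gene and 9 (32.1%, 15.9 to 52.4%) overlapped no sham region, where the share over all distal PHx regions was 37.6%.

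Organic ion carriers held the most distal regions, 20 in sham and 7 after PHx. The long gene Slc22a23 had 6 of them in sham, of 6478 to 17729 bp, and 1 after PHx, while its promoter region went from 5589 to 7560 bp. All 6 overlapped a PHx region, 1 of which measured 76830 bp and was assigned to the same gene. The ergothioneine and carnitine carrier Slc22a4 had 3 distal sham regions of 3153, 6225 and 4197 bp and none after PHx, and the first 2 overlapped no PHx region. Slc22a15 had a distal sham region of 6604 bp and a PHx region of 14343 bp upstream that did not overlap. Slc38a2 of the amino acid class had 2 upstream regions in each list, of 13762 and 18325 bp in sham and 20745 and 25801 bp after PHx, and each pair overlapped. Amino acid carriers had 11 distal sham and 6 distal PHx regions in all, sugar carriers 9 and 3, and mitochondrial carriers 4 and 2.

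Transport genes outside these symbols gave a scale for the carriers. Of 15 carriers with other names, 10 were marked in both lists, 2 after PHx only and 2 in sham only, and the median ratio was 1.25. The hepatocyte organic anion carrier Slco1b2 had 15660 and 16577 bp, the prostaglandin carrier Slco2a1 8970 and 44927 bp, and the mitochondrial pyruvate carrier subunit Mpc1 9177 and 24251 bp. Of 29 ATP-binding cassette transporters, which do split ATP, 18 were marked in both lists, 5 after PHx only and 4 in sham only, and the median ratio was 1.51. The bile salt pump Abcb11 had 7945 and 12118 bp, and the sterol exporters Abcg5 and Abcg8 shared a region of 6702 bp in sham against 23318 bp after PHx. No test compared these sets with the carriers.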

How the data were processed

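H3K27ac CUT&Tag libraries of mouse liver, 2 per group, were analysed from 1 annotated region table per group. Tools named in the submitters' processing notes are Bowtie2, SEACR, DiffBind and ChIPseeker, on GRCm39 (mm39), without roles or versions. Caller settings are not known here. The deposited columns, per the file headers, hold coordinates and widths in bp, the assigned gene and its start, and the peaks of each library behind a region; a merged region spans the union of its peaks, so broader peaks give wider regions and reach more starts.

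The start of a gene was its most upstream start in either table. Protein-coding names came from a RefSeq table of GRCm38.p6, and 265 names had no match there; 111 members matched its promoters by symbol, chromosome and strand. Regions sharing at least 1 bp were called overlapping, and shares have exact Clopper-Pearson 95% intervals. Interval code was tested on simulated data. Python 3.11.15, pandas 2.3.3 and scipy 1.17.1 were used. The members and lists were chosen with earlier results of these data known. The genes named were those marked in a single list, the extremes of ratio and width in each class and carriers known in liver; other genes named from both lists were added after their values were seen. Alternatives were other windows, starts, overlap rules and the authors' assignment; the overlap split and the upstream and downstream parts were added after the data were seen. Protein sequences and tests between libraries were not analysed here. A few members are counted but not described here.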

Additional observations from a re-analysis of the deposited data

How the results depend on the processing

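The count of carriers marked after PHx only exceeded that in sham only by 15, and by 12 to 15 with other windows, starts or overlap of the window. Under the authors' own assignment it reversed: 16 carriers were then marked after PHx only and 32 in sham only, a difference of -16. That setting changed both the gene a region is named for and the window: 6 of the 28 PHx-only carriers became marked in both lists, 2 in sham only and 5 in neither, and 17 of the 86 in both became sham only. As first counted, 32 of 114 PHx regions at carrier starts, against 8 of 99 in sham, were named for another gene. Over protein-coding genes these were 917 of 5773 and 235 of 5375. The reversal itself has no value over protein-coding genes beside it, and its cause was not tested. Restricted to stretches with no unused peak number of the other group, 6 and 2 were left, a difference of 4. Restricted to regions with no overlap in the other list, 16 PHx-only carriers were left. The median width ratio was 1.53 for regions matching 1 to 1, 1.48 for summed lengths, 1.22 for the upstream part alone and 1.13 when divided by the median of protein-coding genes. Beyond 10 kb from the start there were 32 distal sham and 15 distal PHx regions. Distal regions without a partner numbered 49 in sham and 17 after PHx with a reciprocal overlap of 50%, and 4 and 0 with no unused numbers. In all, 16 of these values moved, 1 reversed and 36 stayed close. The counts by class were among the last, but they were varied only by classing genes by family number alone. Their dependence on window, start or assignment was not counted, and calls within classes did change, as at Slc13a4 and Slc37a1 above. No paired analysis was possible because each group has a single merged list without values per library, and for the same reason leaving out a library could not be run. Depth is unknown, so a carrier missing from a list may lie below the authors' threshold.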

Other observations

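A search by assigned gene name alone would give another picture of the carriers. Regions were named for 129 of the 145 carriers in the sham table and for 99 in the PHx table, 83 of them in both, while a region at the start was present for 99 in sham and 114 after PHx. The PHx regions at the starts of Slc7a5, Slc43a1, Slc13a5, Slc2a5 and Slc11a2, for example, carry the names BC048644, D930003E18Rik, 1700051A21Rik, Gpr157 and Gm5475.

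The start chosen for a gene decided a few calls. With any listed start allowed, Slc37a1, Slc45a4 and Slc4a4, marked after PHx only, and Slc15a4 and Slc39a10, marked in neither list, were marked in both. Of the 145 carriers, 28 had more than 1 listed start.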
